A study of Mus musculus with 4 samples.

Results

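The Sertoli-lineage genes described here were followed through 4 libraries of reconstituted ovaries (rOvaries). The members were Sox9, Sox8, Dmrt1, Dhh, Amh, Ptgds, Aard, Cldn11 and Rhox8, which are 9 of the 54021 gene symbols in the count table. They were chosen by name and on measured values, as genes with high counts in control replicate 1, so their levels and fold changes over all 4 libraries are described without a test. Only the comparison that leaves out control replicate 1 is tested. The highest level lay in control replicate 1 for 8 of the 9 members. Rhox8 did not have its highest level in control replicate 1.

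Each rOvary grew from an aggregate of primordial germ cells and gonadal somatic cells placed under the kidney capsule of a bilaterally ovariectomized female recipient. According to the methods, the donor cells came from female fetal gonads of C57BL/6 mice that carry actin-GFP. All recipients were second-generation Terc-deficient C57BL/6 mice (G2 Terc-/-), which lack the telomerase RNA and age prematurely, with a mean age of 10 weeks at transplantation. The 2 INK128 libraries (replicates 1 and 2) came from recipients given INK128, an inhibitor of both mTOR complexes, in the drinking water, and the 2 control libraries (replicates 1 and 3) from recipients without it. The labels give the dose as 0.75 μM per g and the paper as 30 μM. The rOvaries were collected 4 weeks after transplantation. The grafts can hold recipient kidney tissue, and nothing in the labels says how many grafts or recipients entered 1 library, so p-values measure only the spread between these libraries.

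Sertoli cells are the supporting cells of the testis cord, and granulosa cells are their counterparts in the ovarian follicle. In the fetal testis the SRY protein switches on Sox9, and SOX9 with its relative SOX8 and with DMRT1 keeps the supporting cell on the Sertoli path. In the ovary FOXL2 keeps supporting cells on the granulosa path, and granulosa cells that lose it can take up Sertoli genes. Sertoli cells signal through desert hedgehog (Dhh) and anti-Müllerian hormone (Amh), make prostaglandin D2 through Ptgds, and seal the cord with claudin 11 (Cldn11). Amh is also made by granulosa cells of growing follicles, so it is no marker of Sertoli cells alone. The other members are not taken as such markers either. Dhh, Cldn11 and Rhox8 had at least 20.9, 34.9 and 41.2 CPM (scaled read counts, defined below) in every library.

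Library totals ran from 19130209 to 23029089 counts, so that 3 counts, used as a floor, stood for 0.127 to 0.161 CPM (read counts scaled to library size with TMM factors). Floors and intervals cover counting error only. Control replicate 1 stood apart from the other 3 libraries in Y-linked RNA. Of 12 Y-linked genes listed, 5 had counts there, 1031 in all, against 2, 0 and 0 counts in INK128 replicate 1, INK128 replicate 2 and control replicate 3. Ddx3y, with 20.1 CPM, was the highest of them, and Sry had 0 counts in every library. Xist, transcribed from the inactive X chromosome, had 59.2 CPM there and 92.8 to 283 CPM in the other 3. Y-linked RNA goes against female donors and female recipients, and its part in the results below was not tested. The ovarian markers were present in control replicate 1 all the same. Foxl2 had 371 and 368 CPM with INK128 and 146 and 276 CPM in controls. The oocyte gene Gdf9, a growth factor of the follicle, had 454 and 264 CPM with INK128 and 256 and 7.13 CPM in controls. Over 11758 genes whose mean CPM exceeded 10, 1% lay more than 2-fold apart in the INK128 pair and 13.8% in the control pair. Pairs of levels are given for INK128 replicates 1 and 2 in this order and then for control replicates 1 and 3.

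Sox8, Dhh, Ptgds and Cldn11 were highest in control replicate 1, by very different folds. Promoter sequences were at hand for these 4 members only, and all 4 are shown. Each is the 250 bases before the start of transcription in RefSeq on GRCm38.p6, the mm10 assembly, written along the strand of the gene. They lie at chr17:25570687-25570936 on the minus strand for Sox8, chr15:98898541-98898790 on the minus strand for Dhh, chr2:25469750-25469999 on the minus strand for Ptgds and chr3:31149670-31149919 on the plus strand for Cldn11. The Ptgds window lies inside the gene as GENCODE M21 places it, from 25466709 to 25470046.
Sox8: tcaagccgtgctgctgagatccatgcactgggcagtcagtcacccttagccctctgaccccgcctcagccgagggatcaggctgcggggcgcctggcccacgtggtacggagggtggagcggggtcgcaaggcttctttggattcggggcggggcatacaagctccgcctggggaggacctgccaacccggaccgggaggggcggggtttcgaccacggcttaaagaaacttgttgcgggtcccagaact
Dhh: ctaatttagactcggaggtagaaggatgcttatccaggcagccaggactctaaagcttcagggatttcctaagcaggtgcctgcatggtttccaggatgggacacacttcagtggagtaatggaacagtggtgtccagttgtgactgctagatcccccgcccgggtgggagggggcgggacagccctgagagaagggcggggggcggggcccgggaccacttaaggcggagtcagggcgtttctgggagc
Ptgds: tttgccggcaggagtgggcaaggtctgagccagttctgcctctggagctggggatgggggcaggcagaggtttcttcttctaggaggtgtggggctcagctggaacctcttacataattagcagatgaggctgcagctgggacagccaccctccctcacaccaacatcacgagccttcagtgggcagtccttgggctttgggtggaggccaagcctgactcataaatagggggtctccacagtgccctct
Cldn11: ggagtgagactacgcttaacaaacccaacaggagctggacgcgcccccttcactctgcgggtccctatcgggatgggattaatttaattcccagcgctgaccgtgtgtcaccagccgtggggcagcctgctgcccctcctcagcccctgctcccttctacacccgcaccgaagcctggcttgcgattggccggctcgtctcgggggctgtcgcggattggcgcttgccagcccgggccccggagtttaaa
The motifs searched on both strands were the SOX core AACAAT, the SOX and TCF core ACAAAG, which shares letters with it, the nuclear receptor site AGGTCA, and the GATA core AGATAA. None of the 4 member promoters held any of them, so all letters are in lower case, while 9.42%, 16.5%, 14% and 9.99% of 32851 promoters of the same length held the motifs in that order. This says only that these letters are not in these windows.

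The transcription factors Sox9, Sox8 and Dmrt1 had low levels in every library but control replicate 1. Sox9, on chromosome 11 from 112782224 to 112787760 of mm10 (GENCODE M21), had 4.51 and 6.21 CPM with INK128 and 148 and 4.43 CPM in controls. Control replicate 1 was 23.8-fold above INK128 replicate 2, the next library in order (95% interval of the counts 20.0 to 28.5). The other 3 libraries lay close together, and the counting intervals of INK128 replicate 1 (3.60 to 5.58 CPM) and control replicate 3 (3.62 to 5.36 CPM) overlapped. Sox8, on chromosome 17 from 25565892 to 25570686, had 2.31 and 2.58 CPM with INK128 and 61.6 and 2.57 CPM in controls, and was 23.9-fold above INK128 replicate 2 in control replicate 1 (interval 18.3 to 31.8). None of its other 3 libraries could be told apart by counting error. Its exons overlap those of 2810468N07Rik on the other strand, which had 10.2 CPM in control replicate 1 and 3.46 to 4.83 CPM elsewhere, and reads of the overlap are uncertain because the strand setting of the counting is not given in the sources used here. Dmrt1, a factor of the DM family on chromosome 19 from 25505618 to 25604329, had 1 and 3 counts with INK128 and 688 and 0 counts in controls. Its 30.5 CPM in control replicate 1 were 241-fold above control replicate 3 with that library set at the floor of 3 counts, and the lower limit of the exact counting interval was 195-fold. In the other 3 libraries Dmrt1 lay at or under the floor, so no order can be read among them.

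Per kilobase of exon, Sox9 reached 35.7, Sox8 19.8 and Dmrt1 11.7 CPM in control replicate 1, while the other 3 libraries held at most 1.5, 0.826 and 0.0532 CPM per kilobase of the same genes. Set against Foxl2, 101 Sox9 counts were found for every 100 Foxl2 counts in control replicate 1, and 1.22, 1.69 and 1.60 in INK128 replicate 1, INK128 replicate 2 and control replicate 3. In bulk tissue, more cells of a type and more RNA per cell cannot be told apart.

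**Figure D1:**
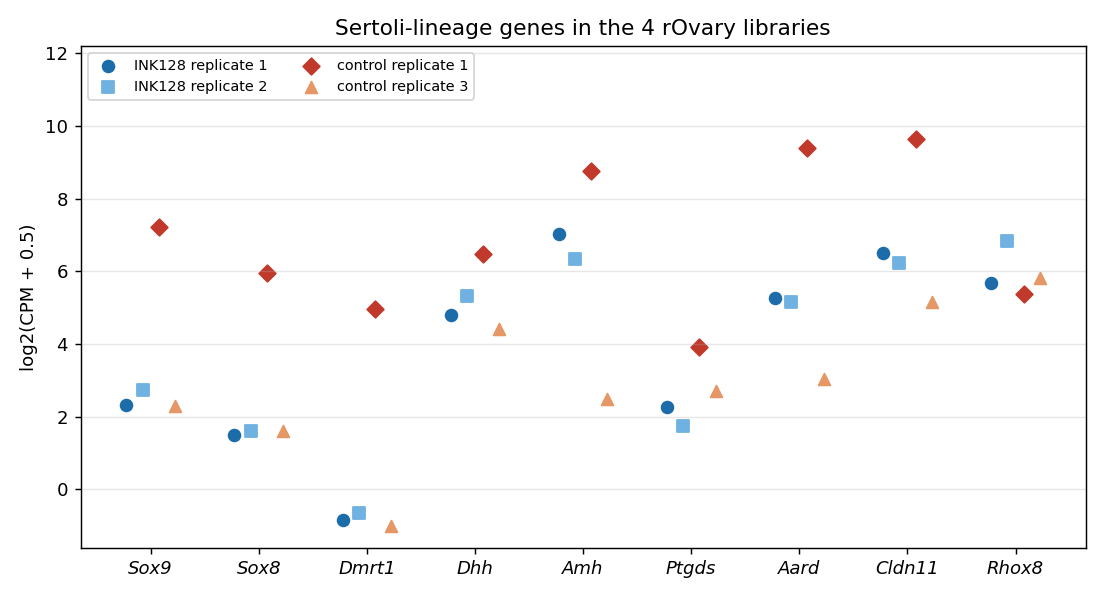
Level of each member, as log2(CPM + 0.5), in the 4 rOvary libraries, 1 point per library with no replicate averaging. Control replicate 1 (red diamonds) is the highest point for 8 members, by a lead from 1.16 for Dhh to 5.60 for Dmrt1, and the lowest for Rhox8.

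Amh, the hormone that makes the Müllerian ducts regress, on chromosome 10 from 80805243 to 80807648, had 131 and 80.1 CPM with INK128 and 435 and 5.10 CPM in controls. These 4 levels were all apart by more than counting error, and control replicate 1 was 3.32-fold above INK128 replicate 1 (interval 3.18 to 3.47) but 85.2-fold above control replicate 3 (interval 71.2 to 103). Dhh, a Hedgehog ligand that Sertoli cells make, on chromosome 15 from 98891152 to 98898540, had 27.4 and 39.3 CPM with INK128 and 88.5 and 20.9 CPM in controls. Its lead in control replicate 1 over INK128 replicate 2 was 2.25-fold (interval 2.08 to 2.44), the smallest lead among the 8 members highest there. Exons of Dhh overlap Rhebl1 and Gm49442, which had 31.3 and 52.6 CPM in control replicate 1 and at most 17.8 and 27.0 CPM elsewhere, and reads in the overlap are uncertain in the same way. The share of such reads was not tested. Ptgds, which makes prostaglandin D2, lies on chromosome 2 from 25466709 to 25470046. It had 4.35 and 2.85 CPM with INK128 and 14.7 and 6.07 CPM in controls, and was the only 1 of the 9 members with both INK128 rOvaries below both controls, an order that 35.3% of 17631 genes (those whose mean CPM exceeded 1) showed. Its lead in control replicate 1 over control replicate 3 was 2.41-fold (interval 1.98 to 2.96).

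Aard and Cldn11 had the highest levels per kilobase among the members in control replicate 1. Cldn11, the claudin of the blood-testis barrier, lies on chromosome 3 from 31149920 to 31164324 and had 89.9 and 74.7 CPM with INK128 and 799 and 34.9 CPM in controls. Control replicate 1 stood 8.89-fold above INK128 replicate 1 (interval 8.46 to 9.35) and 22.9-fold above control replicate 3 (interval 21.4 to 24.6). Aard, named for a domain rich in alanine and arginine, lies on chromosome 15 from 52040107 to 52045722. It had 37.8 and 35.0 CPM with INK128 and 668 and 7.72 CPM in controls, and counting error did not separate the INK128 pair. Per kilobase of exon Aard was the highest member in control replicate 1 with 495 CPM, followed by Cldn11 with 427 and Amh with 260. The order in the INK128 rOvaries was another one, with Amh at 78.4 CPM per kilobase in replicate 1 and Rhox8 at 93.7 in replicate 2 as the highest.

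Rhox8, a homeobox gene of the X-linked Rhox cluster that Sertoli cells express in the testis, went against the rule. It lies on the X chromosome from 37874778 to 37878944 and had 50.9 and 113 CPM with INK128 and 41.2 and 55.5 CPM in controls. The highest library was INK128 replicate 2, at 2.21-fold the level of INK128 replicate 1 (interval 2.05 to 2.39), and control replicate 1 was the lowest. Rhox8 belongs to a family of related genes, and reads shared with near copies would be uncertain.

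Of the 9 members, 8 had their highest level in control replicate 1 and 5 (Sox9, Sox8, Dmrt1, Aard and Cldn11) were there at least 4-fold above every other library. Of the same 17631 genes, 26.6% were highest in control replicate 1 and 2.33% by at least 4-fold, but the members were chosen on this pattern and nothing is read from these shares. On either side of the 4-fold mark, Cldn11 led by 3.15 on the log2 scale and Amh by 1.73. The members summed to 348 and 354 CPM with INK128 and to 2286 and 137 CPM in controls.

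The study compared INK128 with control. Since the members were chosen on a control library, their fold changes over all 4 libraries are given without a p. Group means with INK128 and in controls were 5.36 ± 1.20 and 76.1 ± 101 CPM for Sox9, 106 ± 35.9 and 220 ± 304 CPM for Amh, and 36.4 ± 2.01 and 338 ± 467 CPM for Aard (SD, n = 2 each). The SD of the controls exceeded their mean in each of the 3 genes. The log2 fold changes of edgeR, INK128 against control, ran from −7.14 for Dmrt1 to 0.81 for Rhox8, with −3.77 for Sox9 (standard error 1.57), −3.66 for Sox8 (standard error 1.46) and −1.0 for Amh (standard error 1.67). The value for Dmrt1 rests on 1 and 3 counts with INK128 and depends on the prior count of the fit. Those values come from the fit over all 17631 genes. In the fit restricted to 11758 genes, 7 of the 9 members took part, and Sox9 and Sox8 passed through control replicate 1 alone. No call is read for these 7, since the rule used control replicate 1. A call took a Benjamini-Hochberg adjusted p under 0.05 together with more than a 1.5-fold change (edgeR), and 3.19% of the 11758 genes were called lower and 3.18% higher with INK128. Over the 17631 genes, which include all 9 members, edgeR called 0 (0%), with 5797 genes at an unadjusted p below 0.05 and with 4193 called by DESeq2 and 0 by limma voom.

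The comparison of the INK128 rOvaries with control replicate 3 alone did without the library whose high counts the rule names. In that edgeR fit the spread comes from the INK128 pair only, and the lone control is assumed to vary as little as that pair, so its p-values are too small if controls vary more. Amh was higher with INK128 by 4.42 on the log2 scale (standard error 0.32, adjusted p = 1.53e-07, edgeR), and both INK128 levels were above the 5.10 CPM of control replicate 3. Aard was higher by 2.29 (standard error 0.26, adjusted p = 1.07e-05, edgeR) and Cldn11 by 1.29 (standard error 0.20, adjusted p = 0.000165, edgeR). Dhh was higher by 0.73 (standard error 0.26, adjusted p = 0.0299, edgeR), but DESeq2 on the same 3 libraries gave an adjusted p of 0.0774. In all, 4 of the 9 members were called higher and 0 lower, where 21.6% of the 17631 genes were called higher and 23.4% lower. DESeq2 called 3 of the 4, Amh, Aard and Cldn11. Sox9 differed by 0.33 (standard error 0.41), Sox8 by −0.02 (standard error 0.50), Ptgds by −0.71 (standard error 0.42) and Rhox8 by 0.61 (standard error 0.32), and none of these was called (adjusted p from 0.128 to 0.977, edgeR). Dmrt1 had 1, 3 and 0 counts, at or under the floor in all 3 libraries. Its fitted value there, opposite in sign to that over 4 libraries, depends on the prior count and is not given as a fold.

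**Figure D2:**
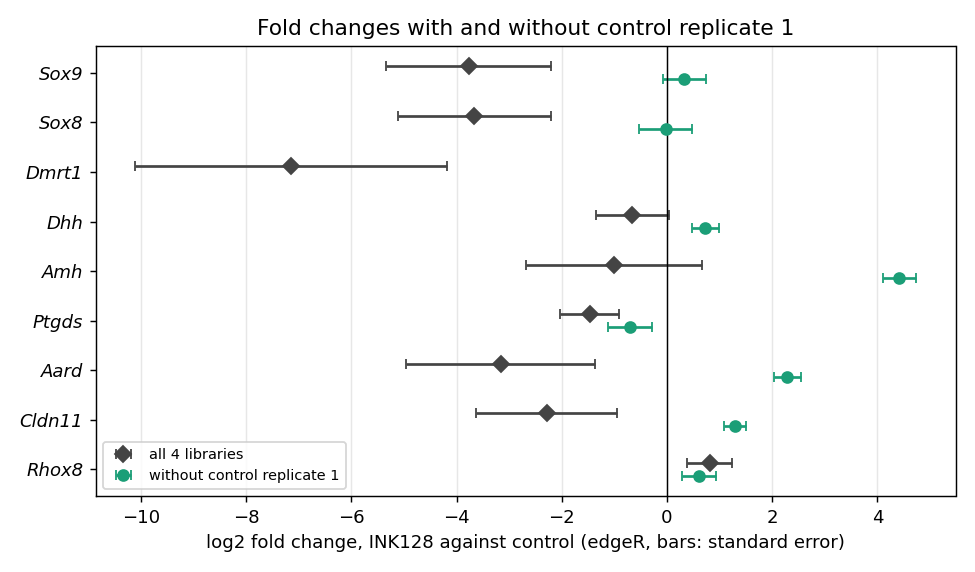
Log2 fold change of each member, INK128 against control, from edgeR fitted on all 4 libraries (black diamonds) and without control replicate 1 (green circles), with bars of 1 standard error. Amh moves from −1.0 to 4.42 and Aard from −3.16 to 2.29, Ptgds stays below 0 at −0.71, and Dmrt1, with 1, 3 and 0 counts there, is not plotted in green.

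The granulosa and oocyte genes of the same 3 libraries are given beside this comparison, since Amh is made by granulosa cells too. The 12 oocyte genes summed to 1411 and 1054 CPM with INK128 and to 958 and 65.7 CPM in controls, and this sum, like the level of Amh, was lowest in control replicate 3. Kit, which other cells express too, was the exception among the 12, with its highest level, 35.8 CPM, in control replicate 3. The 15 granulosa genes summed to 2526 and 2671 CPM with INK128 and to 1582 and 5581 CPM in controls, and Inhba, Lhcgr and Hsd17b7 made up most of the sum in control replicate 3, with 2088, 1380 and 485 CPM. Foxl2, Amhr2, Wnt4, Cyp19a1 and Ihh were lower in control replicate 3 than in both INK128 rOvaries. All other genes of this list, most of the 15, were higher there than in both, among them Fst, Nr5a2, Esr2 and Rspo1. Aromatase (Cyp19a1), the estrogen-making enzyme of granulosa cells, had 223 and 177 CPM with INK128 and 35.7 and 163 CPM in controls. The luteinizing hormone receptor (Lhcgr) had 34.0 CPM in control replicate 1 and 369 CPM or more in the other 3. The part of these differences in the levels of Amh and Aard was not tested.

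Other genes of testis determination did not all share the pattern of the members. Of the 13 listed, 11 had a mean CPM above 1, 6 of these were highest in control replicate 1 and 2 by at least 4-fold. Wt1, a zinc finger factor of supporting cells and of kidney podocytes, had 56.3 and 46.3 CPM with INK128 and 311 and 64.6 CPM in controls. Nr0b1, which encodes the nuclear receptor DAX1, had 6.39 and 4.37 CPM with INK128 and 91.2 and 4.34 CPM in controls. Gata4 and Nr5a1, which granulosa cells share, were not highest there, with 231 and 155 CPM in control replicate 1 and at least 252 and 228 CPM in the other 3. Fgf9, which sustains Sox9 in the fetal testis, stayed between 1.33 and 2.70 CPM in every library. None of the 9 tested genes of this list was called between INK128 and control (edgeR, adjusted p over all genes tested).

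Of 26 other genes associated with Sertoli cells, 24 had a mean CPM above 1, 12 of these were highest in control replicate 1, 7 were lowest there and 6 were at least 4-fold above every other library. Over all 17631 genes 26.6% were highest, 25.8% lowest and 2.33% at least 4-fold above in that library, so the share that was lowest in this list was near that of all genes. Cst9, a cystatin named testatin, led furthest in control replicate 1, with 35.1 CPM against 0.376, 0.598 and 0.675 CPM. Shbg, the carrier of sex steroids, had 2.58 and 4 CPM with INK128 and 42.8 and 1.27 CPM in controls. Espn, an actin-bundling protein of Sertoli cell junctions, had 12.3 and 16.9 CPM with INK128 and 197 and 32.3 CPM in controls, and Clu, clusterin, 952 and 1122 against 6271 and 951 CPM. Inha, the inhibin alpha chain that granulosa cells make as well, was lowest in control replicate 1, with 4067 and 5893 CPM with INK128 and 1680 and 2858 CPM in controls. Rhox5, another Rhox gene, stayed between 0.797 and 1.93 CPM. Of the 21 tested genes, 1 was called lower with INK128, where 3.19% of all tested genes were. It was Nedd9, a scaffold protein of focal adhesions, with 20.0 and 17.4 CPM against 82.5 and 52.5 CPM (log2 fold change −1.85, standard error 0.29, adjusted p = 0.0464, edgeR).

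**Figure D3:**
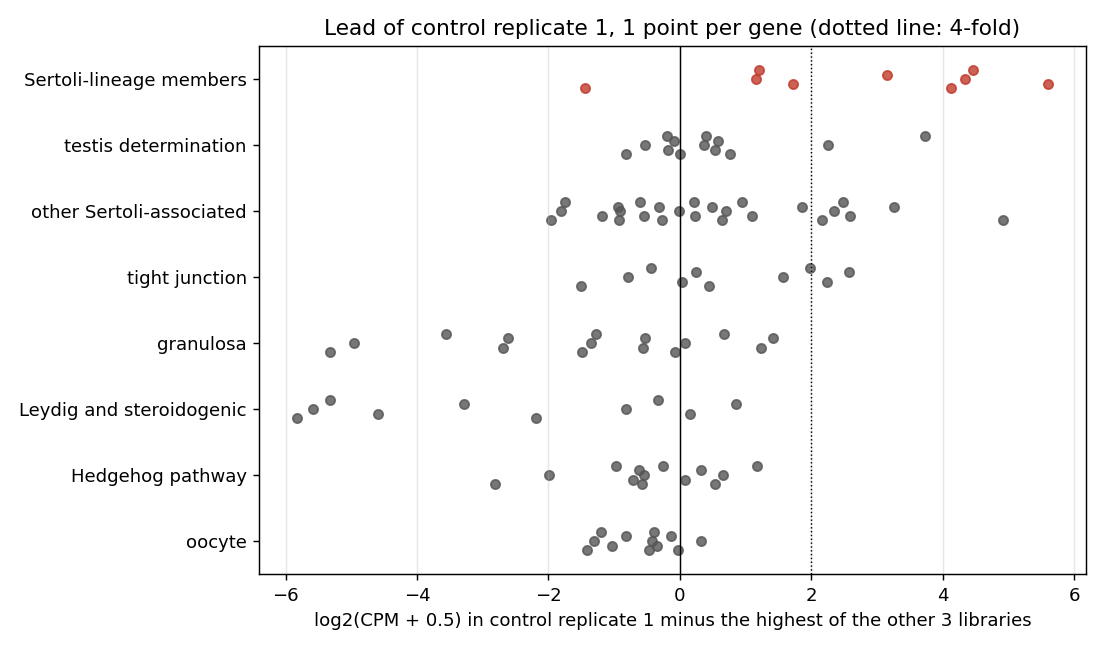
Lead of control replicate 1, as log2(CPM + 0.5) there minus the highest of the other 3 libraries, with 1 point per gene in 8 lists and a dotted line at 4-fold. Sertoli-lineage members reach from −1.44 (Rhox8) to 5.60 (Dmrt1), Cst9 is the point at 4.92 among the other Sertoli-associated genes, and granulosa and steroidogenic genes lie mostly below 0.

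Of 12 Hedgehog pathway genes with a mean CPM above 1, 4 were highest and 7 lowest in control replicate 1, the library with the most Dhh, beside 26.6% and 25.8% of all genes. The receptor Ptch1 had 193 and 146 CPM with INK128 and 97.6 and 157 CPM in controls. Gli1, a transcription factor that the pathway induces, had 32.4 and 46.2 CPM with INK128 and 11.3 and 16.8 CPM in controls, and the pathway inhibitor Hhip 61.9 and 61.5 against 8.37 and 30.7 CPM. All 3 are transcribed when the pathway is active, and all 3 had their lowest level in control replicate 1. Gas1, a co-receptor of Hedgehog ligands, was highest there, with 135 and 104 CPM with INK128 and 218 and 138 CPM in controls. None of the 12 was called between INK128 and control (edgeR).

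Amhr2, the receptor of AMH, had 173 and 152 CPM with INK128 and 408 and 86.1 CPM in controls, the same order of libraries as Amh. It was the 1 gene of the 8 listed for AMH signalling that was highest in control replicate 1, and none of the 7 tested was called (edgeR). In the prostaglandin D2 list, Hpgds, the other prostaglandin D synthase, had 1.75 to 4.77 CPM and the receptor Ptgdr at most 0.107 CPM, under the floor of 3 counts. Ptgs1 of this list was highest in control replicate 1, with 8.43 and 5.70 CPM with INK128 and 22.9 and 10.3 CPM in controls. Ptgs2 was highest there too, at 1.86 CPM. Of the 10 tight junction genes, 7 were highest in control replicate 1, 3 of them at least 4-fold above every other library, and 2 were lowest there. The lowest were Cldn1, with 30.9 and 33.7 CPM with INK128 and 11.6 and 19.8 CPM in controls, and the endothelial claudin Cldn5, with 47.2 and 56.4 CPM with INK128 and 32.5 and 54.1 CPM in controls. Cgn, cingulin, had 16.8 and 16.8 CPM with INK128 and 194 and 32.3 CPM in controls, Ocln, occludin, 2.25 and 2.58 against 37.1 and 7.46 CPM, and Cldn3 4.94 and 4.28 against 27.7 and 6.66 CPM. Tjp1, which anchors junctions to actin, was the 1 tight junction gene called (log2 fold change −1.29, standard error 0.19, adjusted p = 0.0464, edgeR), with both controls above both INK128 rOvaries. No call on a gene of these lists, Nedd9 and Tjp1 included, held in the edgeR fit over 17631 genes, which called 0.

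Markers of other cells that express members or neighbour the graft were set beside these levels. The steroidogenic list was lowest in control replicate 1 for 6 of its 9 genes with a mean CPM above 1 (25.8% of all genes). Cyp17a1 had 17.0 CPM there and at least 165 CPM elsewhere. Insl3 went the other way, as the 1 gene of the 9 that was highest there. It had 45.4 CPM, against 40.6 CPM in INK128 replicate 2, the next library in order. Star in control replicate 1 lay above both INK128 rOvaries and below control replicate 3. Hsd17b3, the testosterone-making enzyme of Leydig cells, had 1.46 CPM in control replicate 1 and at most 0.590 CPM elsewhere. Of 13 male germ cell genes, 8 had a mean CPM above 1 and 3 of these were highest in control replicate 1, and 1 by at least 4-fold. That gene was Gfra1, the GDNF co-receptor of spermatogonia, with 3.22 and 3.04 CPM with INK128 and 26.5 and 1.35 CPM in controls. The spermatid genes Prm1, Tnp1 and Acrv1 had at most 0.127 CPM in any library. The 8 kidney tubule genes summed to 27.9 and 103 CPM with INK128 and to 415 and 1032 CPM in controls, and their part in the member levels was not tested. Of these, Slc34a1 and Lrp2 were called lower with INK128 (edgeR), where 3.19% of 11758 genes were. Lrp2 had 3.06 and 4.14 CPM with INK128 and 51.1 and 97.7 CPM in controls. It passed the filter on mean CPM through the controls alone, so nothing is read from its call. With a CPM above 10 required in all 4 libraries, 0 kidney tubule genes were called, and Slc34a1, with 7.03 CPM in INK128 replicate 1, was not tested. The 6 genes of duct and rete epithelium summed to 10.8 and 16.8 CPM with INK128 and to 188 and 143 CPM in controls. Cdh16, a cadherin of kidney tubules, made up most of the sum in control replicate 3, with 2.90 and 7.96 CPM with INK128 and 93.7 and 106 CPM in controls. It was called lower with INK128 (adjusted p = 0.0464, edgeR), where 3.19% of 11758 genes were. Cdh16 passed the filter on mean CPM through the controls alone, so nothing is read from its call. With a CPM above 10 required in all 4 libraries, 0 genes of its list were called. Pax8, a paired box factor of duct and kidney epithelium, was highest in control replicate 1, with 2.47 and 2.44 CPM with INK128 and 57.4 and 5.90 CPM in controls. The 6 chondrocyte genes, a cell type with Sox9, summed to 2.48 CPM in control replicate 1 and to 4.78 to 55.9 CPM elsewhere, and the cartilage collagen Col2a1 had at most 0.184 CPM. Sox10, the relative of Sox8 and Sox9 in Schwann cells and oligodendrocytes, had at most 0.221 CPM. Smooth muscle genes, which peritubular cells of the testis share, were lowest in control replicate 1 for 4 of 6 (25.8% of all genes). Acta2 and Cnn1 were called higher with INK128 (log2 fold changes 2.43 and 2.38, adjusted p = 0.0464 for both, edgeR), where 3.18% of 11758 genes were. No call in this paragraph held in the edgeR fit over 17631 genes, which called 0. With limma voom or with exon length offsets 0 genes were called as well.

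**Figure D4:**
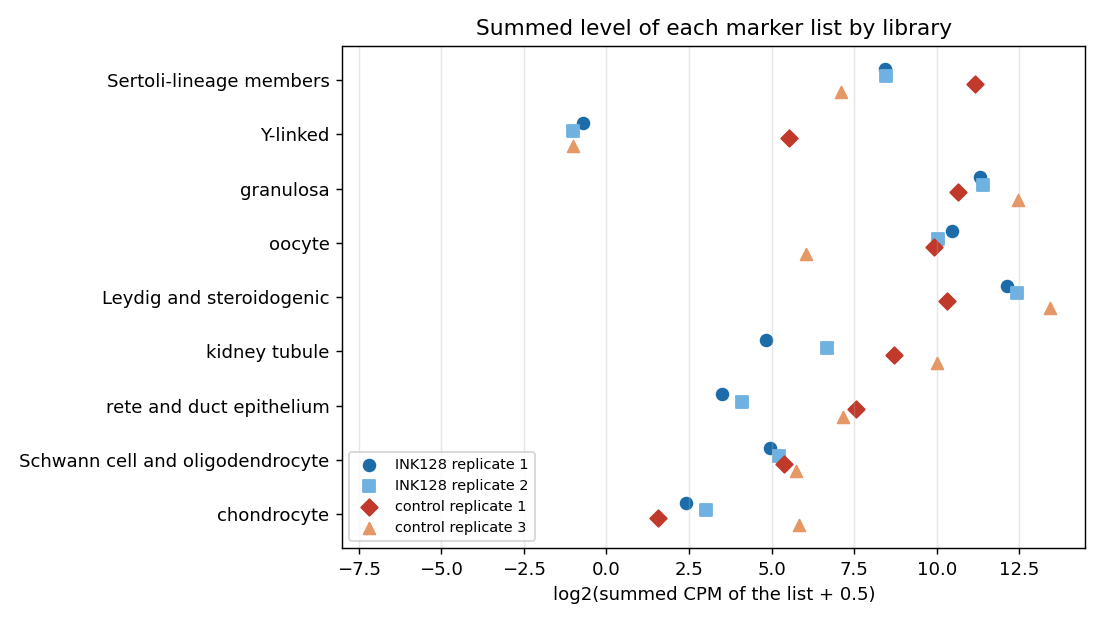
Summed level of 9 marker lists, as log2(summed CPM + 0.5), in each library. The members and the Y-linked list peak in control replicate 1 (red diamonds), at 2286 and 45.6 CPM, whereas the kidney tubule list peaks in control replicate 3 (orange triangles) at 1032 CPM.

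The genes most like the members were ranked by the same lead of control replicate 1, over the 15648 genes outside the Y-linked set that had at least 50 counts in control replicate 1 and a mean CPM over 1. The measure rests on 4 libraries. Dmrt1 ranked 14, Sox9 33, Sox8 37, Aard 45, Cldn11 121, Amh 445, Ptgds 734, Dhh 777 and Rhox8 14605. The 12 non-members with the largest lead were Pate4, Svs4, Defb36, Gm14569, Wfdc18, 8030411F24Rik, Cidea, Vsig1, Sncb, Pate2, Svs2 and 4933402E13Rik, with leads from 7.30 down to 5.90 on the log2 scale. Pate4, first in rank, had 2909 counts (129 CPM) in control replicate 1 and 4 to 6 counts in the others. Svs4 and Svs2, named as secretory proteins of the seminal vesicle, had 1384 and 686 counts in control replicate 1 and 0 in all 3 others. Defb36, a beta-defensin, had 157 CPM against 0.422 to 0.966 CPM. Svs, Pate and defensin genes belong to families of related copies, so their single values are uncertain where reads were shared.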

How the data were processed

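RNA-seq of 4 rOvary libraries was analysed, 2 with INK128 and 2 controls, grouped by their titles. Per the labels and methods, the authors used Trimmomatic for trimming, HISAT2 for alignment to mm10 and featureCounts with RefGene gene models, on NEBNext Ultra libraries. The values deposited are unnormalized read counts for each gene symbol. Tool versions and the strand setting are not given in the sources used here.

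TMM-scaled CPM came from edgeR 4.0.16 under R 4.3.3. The quasi-likelihood F-test of edgeR, with Benjamini-Hochberg adjusted p-values, was run on 11758 genes whose mean CPM exceeded 10 and on 17631 whose mean exceeded 1. A gene was called where the adjusted p was under 0.05 and the change over 1.5-fold. Exact permutation of 2 against 2 libraries cannot pass that threshold for a single gene. Standard errors follow from the fold change and the F statistic. Ratios of libraries carry exact 95% counting intervals, the floor is 3 counts, and leads use a pseudocount of 0.5. GENCODE M21 gave positions and exon lengths (known for 99.5% of the 11758 genes), and RefSeq the promoters.

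The members and all 16 gene lists were chosen with earlier results of these data known. Named genes are members, list genes and the 12 non-members with the largest lead of control replicate 1. Alternatives were DESeq2 1.42.0, limma 3.58.1 (voom), other scalings, filters and pseudocounts, exon length offsets and leaving out each library. DESeq2 without control replicate 1 was added after the data were seen. All fits were tested on simulated data. Single values of some list genes are not reported here.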

Additional observations from a re-analysis of the deposited data

How the results depend on the processing

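The number of genes called between INK128 and control moved widely from 749. DESeq2 called 3367 and limma voom 0, offsets for exon length in each library left 0, no filter gave 3105, and a CPM above 10 in all 4 libraries gave 1520. With each library left out in turn the count ran from 0 to 5387, the 0 falling to the fits without either INK128 library, 5387 to the fit without control replicate 1 and 5011 to that without control replicate 3. DESeq2 without control replicate 1, chosen after the data were seen, called 4829. Genes of the 16 lists called followed, from 7 to 29 (DESeq2), 0 (limma voom), 0 (length offsets), 32 (no filter), 0 to 63 (1 library left out) and 56 (DESeq2 without control replicate 1). At a mean CPM above 1, DESeq2 called 4193 in place of 0, leaving out 1 library gave 0 to 7926, and DESeq2 without control replicate 1 gave 6176, with 37, 0 to 76 and 64 list genes. The cause of these shifts was not tested, apart from the fits with fewer libraries, which draw their spread from fewer pairs.

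Leaving out control replicate 1 turned the direction of 5 of the 8 members with counts above the floor. Without it, the log2 fold changes by edgeR and DESeq2 were 0.33 and 0.32 for Sox9, 0.73 and 0.72 for Dhh, 4.42 and 4.41 for Amh, 2.29 and 2.28 for Aard and 1.29 and 1.28 for Cldn11. With 1 library left out in turn, the lowest values were −4.72 for Sox9, −1.35 for Dhh, −1.99 for Amh, −4.14 for Aard and −3.23 for Cldn11, each without control replicate 3. Without control replicate 1 Ptgds and Rhox8 kept their direction (−0.71 and 0.61), Sox8 came to −0.02 from −3.66, and the fitted value of Dmrt1 changed sign but is not given, since its counts lay at or under the floor. With limma voom the fold change of Amh was 1.19, against −1.0 by edgeR. It was −2.17 for Sox9, −2.27 for Sox8, −2.63 for Dmrt1, −0.92 for Aard and −0.97 for Cldn11 in the same fit, and 0.12 for Rhox8 without INK128 replicate 2. Of 97 member fold changes under the alternatives, which leave out Dmrt1 without control replicate 1, 11 changed sign. The lead of control replicate 1 kept its sign for all 9 members under library totals, RLE factors and pseudocounts of 0.1 and 1. No paired analysis was possible because the groups share only replicate number 1. Depth limited Dmrt1, whose 0 to 3 counts outside control replicate 1 allow no comparison.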
